A study of Homo sapiens with 6 samples.

Results

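Metallothioneins, the metal-sensing factor *MTF1* and the zinc transporters of the SLC30 and SLC39 families were followed in A549 cells with and without *IL17D* overexpression. The members were the rows of the deposited gene count table that carry 1 of 35 gene names: 10 metallothioneins, *MTF1*, 10 SLC30 genes and 14 SLC39 genes, out of 58735 genes in the table. A549 is an established human lung carcinoma cell line of epithelial origin. Total RNA of 3 *IL17D*-overexpressing and 3 control samples was sequenced, and each library had between 14319398 and 16521021 counted reads. The overexpressing cells carried the *IL17D* coding sequence on a lentiviral vector, in which the human PGK promoter drives the insert together with a GFP marker, and the control cells carried the empty vector. All cells grew in the same serum-containing medium, and the labels name no added metal. The question the design addresses is what *IL17D* overexpression changes in the RNA of these lung cancer cells.

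Zinc inside a cell is buffered, moved and sensed by a small set of proteins. Metallothioneins are short, cysteine-rich proteins of the cytosol that bind zinc and copper. When free zinc rises, the transcription factor MTF1 binds short metal response elements in the promoters of metallothionein genes and of the exporter gene *SLC30A1* and raises their transcription. SLC30 proteins (ZnT) move zinc out of the cytosol, into organelles or out of the cell, whereas SLC39 proteins (ZIP) move zinc into the cytosol.

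The promoter stretches below are shown because they carry the metal response element cores of the metallothioneins that passed the filter on low counts (*MT2A*, *MT1X*), of a metallothionein with no reads (*MT1H*) and of *SLC30A1*, whose fold change had a narrow interval around no difference. They come from RefSeq (GRCh38.p14), run 5′ to 3′ on the gene's strand, and the capitals mark each match to TGCACNC or TGCGCNC on either strand. The *SLC30A1* and *MT1H* stretches are the 250 bases before the RefSeq start. The counted *SLC30A1* gene begins at position 211578742 on the minus strand, so a gap separates it from the printed stretch. The *MT1X* stretch is cut short where a longer annotated transcript begins, and *MT2A* is shown as 3 stretches of 30 bases, since a longer annotated transcript of *MT2A* covers its window. The *MT2A* stretches hold the cores 168 and 153 bases (pair), 88 bases (distal) and 54 bases (proximal) before the RefSeq start. Distal and proximal are named relative to each other only, and the *MT2A* cores at 246, 139 and 8 bases are not printed.
MT2A core pair (chr16:56608412-56608441, plus strand): gcccGTGTGCAgagccgggTGCGCCCggcc
MT2A core distal (chr16:56608484-56608513, plus strand): tcagcgcggggcGTGTGCAggcagcgcccg
MT2A core proximal (chr16:56608518-56608547, plus strand): gggcggggctttTGCACTCgtcccggctct
MT1X (chr16:56682220-56682423, plus strand): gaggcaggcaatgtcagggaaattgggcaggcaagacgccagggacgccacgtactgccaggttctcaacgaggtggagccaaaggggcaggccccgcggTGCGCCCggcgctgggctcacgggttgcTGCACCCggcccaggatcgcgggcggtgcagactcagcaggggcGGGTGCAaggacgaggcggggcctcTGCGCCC
MT1H (chr16:56669564-56669813, plus strand): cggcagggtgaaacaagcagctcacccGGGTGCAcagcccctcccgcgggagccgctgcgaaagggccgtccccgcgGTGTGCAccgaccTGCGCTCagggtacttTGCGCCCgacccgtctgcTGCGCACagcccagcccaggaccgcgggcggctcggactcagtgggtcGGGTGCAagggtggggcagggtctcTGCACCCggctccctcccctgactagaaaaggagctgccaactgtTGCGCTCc
SLC30A1 (chr1:211579162-211579411, minus strand): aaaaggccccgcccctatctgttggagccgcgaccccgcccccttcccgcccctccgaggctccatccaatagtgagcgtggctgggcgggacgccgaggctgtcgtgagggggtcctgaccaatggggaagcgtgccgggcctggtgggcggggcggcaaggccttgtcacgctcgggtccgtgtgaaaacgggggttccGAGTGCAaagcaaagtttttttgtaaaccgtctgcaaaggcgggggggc

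In the 250 bases before the RefSeq start, the core was found 7 times for *MT2A*, 4 times for *MT1X*, 8 times for *MT1H*, 3 times for *MT1B* and 1 time for *SLC30A1*. Of all 35116 promoter windows in the table, 24.8% held at least 1 core, 1.05% at least 3, 0.208% at least 4, 0.0228% at least 7 and 0.0142% at least 8. RefSeq windows were matched for 26 of the 35 members, 4 of them metallothioneins. *MT1A*, *MT1E*, *MT1F*, *MT1G*, *MT1M*, *MT3*, *SLC30A8*, *SLC39A4* and *SLC39A14* had no entry. Among the transporters, 10 of the 21 with a window held at least 1 core in their richest window, against 28.5% of 27305 genes counted in the same way. The window of *MTF1* itself held none. A TATAAA box stood 29 bases before the start of *MT2A* and 30 bases before those of *MT1X* and *MT1B*, where 2.63% of all windows have one in the last 50 bases. These matches describe letters in a window. They were shared by metallothioneins with many reads and with none.

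The overexpression itself was visible in every library. *IL17D* had 24, 18 and 34 reads in the control libraries and 31274, 32155 and 26772 reads in the *IL17D* libraries, a log2 fold change of 10.19 (adjusted p = 2.5e-47, edgeR's quasi-likelihood fit, adjusted by Benjamini-Hochberg over 15754 genes). By the same test, 249 genes, or 1.58%, had an adjusted p under 0.05, of which 106 were higher (0.673%) and 143 lower (0.908%) in *IL17D*-overexpressing cells. Of the 12 epithelial markers checked, 8 exceeded a mean of 1 count per 1000000 reads (CPM) over the 6 libraries, but *KRT19*, *NKX2-1*, *SFTPB* and *SFTPC* did not. Among the 8, *EPCAM* (1.05 CPM in control, 0.976 CPM with *IL17D*) and *NAPSA* (1.56 and 0.857 CPM) were near that limit. The summed epithelial marker level was 12750 to 13250 CPM in control and 12380 to 12630 CPM in *IL17D* libraries, and most of that sum came from keratin genes. Of the 8 tested epithelial markers, 7 were lower, 5 had an unadjusted p under 0.05 by edgeR and 4 of these had groups that did not overlap. Of all tested genes, 5.99% were lower at an unadjusted p under 0.05 by edgeR and 8.31% were lower without overlap. *CDH1*, the gene of E-cadherin, was called lower (log2 fold change -0.28, adjusted p = 0.031 by edgeR). The other 4 with an unadjusted p under 0.05 were not called, at log2 fold changes of -0.65 for *CLDN4*, a tight junction gene, -0.87 for *NAPSA*, a lung aspartic protease whose groups overlapped, -0.07 for *KRT7* and -0.06 for *KRT8*. Whether the lower epithelial markers have a part in the differences below was not tested. None of the 6 leukocyte and none of the 5 endothelial markers reached a mean of 1 CPM over the 6 libraries. In single libraries *CD14* reached 1.22 CPM (*IL17D* replicate 1) and *CLDN5* 1.05 CPM (*IL17D* replicate 3). Summed levels were 0.730 to 1.34 CPM for leukocyte and 0.669 to 1.31 CPM for endothelial markers, with *CD3E*, *PTPRC* and *KDR* at 0. Among the 6 fibroblast markers, 1 exceeded a mean of 1 CPM (summed level 22.7 to 25.2 CPM in control and 19.6 to 24.4 CPM in *IL17D* libraries). In bulk RNA a lower level can mean fewer cells with the transcript or less of it per cell, and these cannot be told apart.

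Metallothionein RNA was lower in *IL17D*-overexpressing cells, and nearly all of it came from *MT2A*. Summed over the 10 metallothioneins, the control libraries had 93.9, 89.3 and 95.4 CPM and the *IL17D* libraries 60.5, 68.5 and 67.8 CPM. The family total therefore fell from 92.9 ± 3.19 to 65.6 ± 4.42 CPM (SD, n = 3 each), a ratio of 0.706, with no overlap between the groups. *MT2A* contributed 92.8% to 96.5% of the metallothionein reads in each library. Of the 10 genes, 3 had reads (*MT2A*, *MT1X*, *MT1F*), 2 passed the filter on low counts (*MT2A*, *MT1X*), and 1 was called. Both tested genes were lower, with a median log2 fold change of -0.63 beside -0.00044 over all 15754 tested genes.

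*MT2A* (ENSG00000125148, chr16:56608199-56609497, plus strand) encodes the widely expressed metallothionein-2. It had 1443, 1199 and 1471 reads in the control libraries and 960, 1069 and 927 reads in the *IL17D* libraries. As levels these were 88.8, 82.9 and 91.5 CPM against 58.4, 65.0 and 65.0 CPM. The lowest control library stood well above the highest *IL17D* library. The level of *MT2A* fell by 28.5%, from 87.7 ± 4.39 to 62.8 ± 3.83 CPM (SD, n = 3 each), or by 0.48 on the log2 scale (SE 0.055, 95% interval -0.60 to -0.37, adjusted p = 2.9e-07, edgeR's quasi-likelihood fit, Benjamini-Hochberg adjusted). By p-value *MT2A* stood at place 12 of the 15754 tested genes. By size its change was less rare: 468 genes (2.97%) fell by at least as much. The call for *MT2A* held in all 13 alternative analyses, including those that left out 1 library each, with log2 fold changes from -0.52 to -0.43 and adjusted p at most 1.9e-05.

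*MT1X* (ENSG00000187193, chr16:56682424-56684196, plus strand), an inducible metallothionein-1 isoform, was far less abundant. It had 75, 83 and 57 reads in control and 35, 55 and 37 reads in *IL17D* libraries, which is 4.62, 5.74 and 3.54 CPM against 2.13, 3.35 and 2.59 CPM. The groups of *MT1X* did not overlap, but the control library with the fewest reads and the *IL17D* library with the most reads stood close together. The mean went from 4.63 ± 1.10 to 2.69 ± 0.614 CPM (SD, n = 3 each), a log2 fold change of -0.78 (SE 0.23, 95% interval -1.24 to -0.32), and only 128 genes (0.812%) fell by at least as much. With an adjusted p of 0.080 in edgeR's quasi-likelihood test, *MT1X* was not called. Its adjusted p ranged from 0.023 to 0.38 over the 13 alternatives and was under 0.05 in 4 of them: with all genes of at least 1 count tested (0.041), with the replicate number as a block (0.042), without control replicate 3 (0.023) and without *IL17D* replicate 2 (0.044). It was highest, 0.38, without control replicate 2.

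*MT1F* (ENSG00000198417, chr16:56657694-56660698, plus strand), another metallothionein-1 isoform, was at the edge of detection. It had 8, 10 and 7 reads in control and 0, 2 and 3 reads in *IL17D* libraries. Every control library had more *MT1F* reads than any *IL17D* library, and the gene was below the filter. In sum, 25 reads stood against 5, a depth-adjusted ratio of 0.198 (95% exact interval 0.0593 to 0.528, which covers counting error only). A two-sided exact permutation test over the libraries gave p = 0.1 for *MT1F*, the smallest that 3 against 3 allows. In the fit that kept all genes of at least 1 count, its adjusted p was 0.295 by edgeR.

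**Figure D1:**
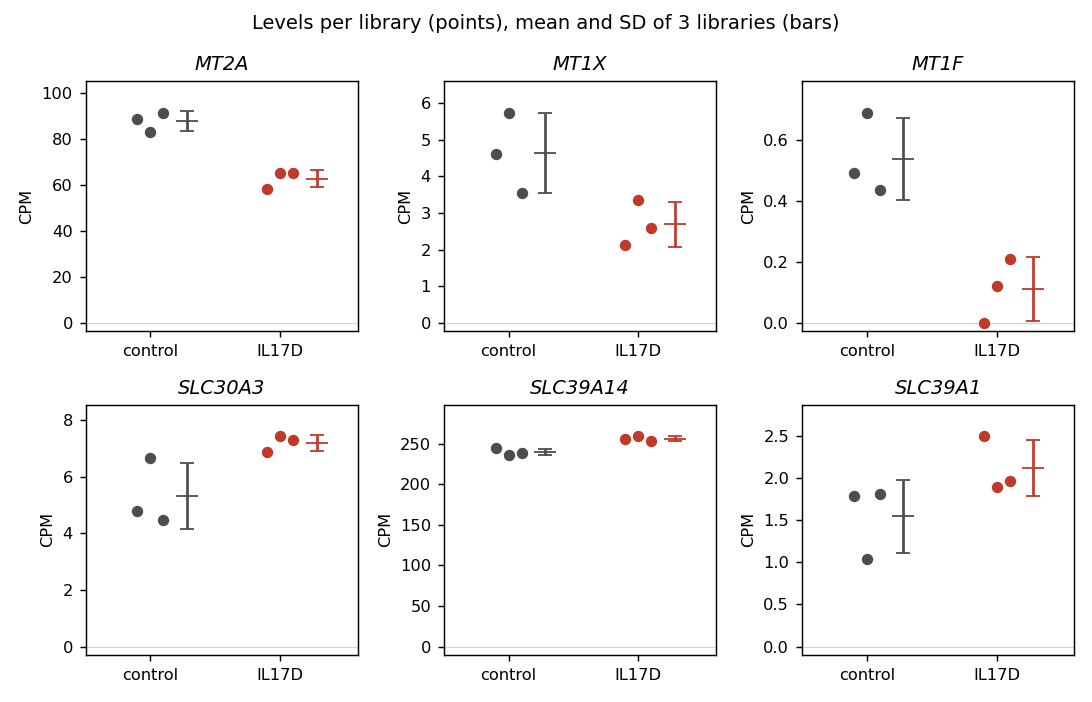
Levels in CPM (y axis, linear, from 0) of 6 members in the 3 control and 3 *IL17D* libraries, with points for libraries and bars for the mean and SD. The panels show the members whose groups did not overlap, so that separation was set by the choice of panels. *MT2A*, *MT1X* and *MT1F* were lower and *SLC30A3*, *SLC39A14* and *SLC39A1* higher in *IL17D* libraries. Only *MT2A* had an adjusted p under 0.05 by edgeR. Of all tested genes, 8.31% were lower and 7.48% higher without overlap.

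The other 7 metallothioneins, *MT1A*, *MT1B*, *MT1E*, *MT1G*, *MT1H*, *MT1M* and *MT3*, had 0 reads in all 6 libraries. *MT3* is known mainly from neurons, and the others are metal-inducible isoforms like *MT1X*. A count of 0 allows up to 3 reads, which at these depths is 0.182 to 0.210 CPM per library. A level below that in a single library could not be told from 0. The limit for the pooled libraries of a group is lower and was not computed, and differences below it were not detectable. *MT1H* and *MT1B*, with 8 and 3 metal response element cores before their starts, belonged to this silent set. Metallothionein genes resemble each other, and reads that match several of them can be lost or assigned to a relative. Of all 31-base stretches of their transcripts, 7.25% of those of *MT2A*, 19.8% of *MT1X*, 3.25% of *MT1F* and between 1.2% (*MT3*) and 28.8% (*MT1B*) of those of the 7 silent genes also occur in another annotated gene. *MT1X* also shares 18.1% of its exon bases with a gene on the same strand that had 0 reads. Of 11 further metallothionein genes and pseudogenes outside the member set, 5 had reads, the most being 15 for *MT1XP1* and 13 for *MT2P1* over the 6 libraries, and none passed the filter.

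All 10 metallothioneins lie in 1 cluster of 95.1 kb on chromosome 16, between positions 56589074 and 56684196.

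**Figure D2:**
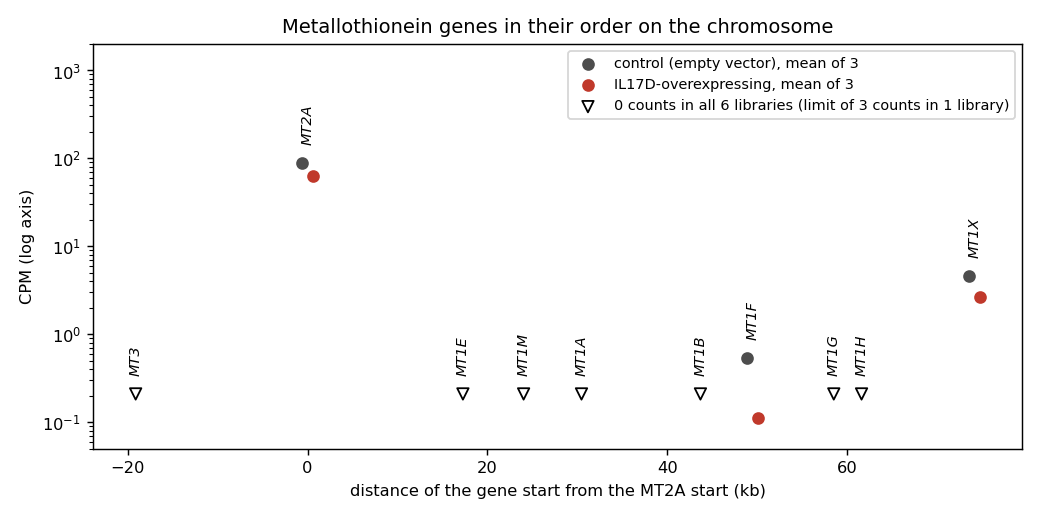
Mean level of each metallothionein (CPM, log axis) in the 3 control and 3 *IL17D* libraries against the distance of the gene start from the *MT2A* start (kb). *MT2A* stands at 87.7 and 62.8 CPM, *MT1X* at 4.63 and 2.69 CPM and *MT1F* at 0.540 and 0.111 CPM, and triangles at the limit of 3 counts mark the other 7 genes, which had 0 reads.

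*MTF1* (ENSG00000188786), the zinc-sensing activator of metallothionein transcription, had 337, 344 and 367 reads in control and 322, 421 and 349 reads in *IL17D* libraries. The groups overlapped. Its level was 22.5 ± 1.56 CPM in control and 23.2 ± 3.20 CPM in *IL17D*-overexpressing cells (SD, n = 3 each), a log2 fold change of 0.05 (95% interval -0.14 to 0.24, adjusted p = 0.911, edgeR's quasi-likelihood test). That interval lies above the log2 fold change of *MT2A*. RNA level says nothing of the activity of MTF1 as a protein, which was not measured.

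The exporter family gave no call. Of the 10 SLC30 genes, 8 had reads and 7 were tested, of which 4 were lower and 3 higher, with a median log2 fold change of -0.0065. None of the 7 had an adjusted p under 0.05 by edgeR. An unadjusted p under 0.05 was found for 1, which was higher, where 5.59% of all tested genes were higher by that measure. Summed over the family, the level was 366.0 ± 5.78 CPM in control and 362.0 ± 7.82 CPM in *IL17D* libraries (SD, n = 3 each), a ratio of 0.989. *SLC30A2*, a vesicular transporter, had 2 reads in 1 control library and none elsewhere, and *SLC30A8*, the transporter of insulin granules, and *SLC30A10*, a manganese exporter, had 0 reads in all libraries.

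*SLC30A1* (ENSG00000170385), the exporter of the plasma membrane and a metal-induced gene like the metallothioneins, was the most abundant member of its family per length. It had 1707, 1506 and 1735 reads in control and 1781, 1690 and 1410 in *IL17D* libraries, or 105.0, 104.1 and 107.9 CPM against 108.3, 102.8 and 98.8 CPM. The control values lay within the range of the *IL17D* values. The log2 fold change of *SLC30A1* was -0.03 (SE 0.046, 95% interval -0.13 to 0.06, adjusted p = 0.869 by edgeR's quasi-likelihood test), and the interval lay above the fall of *MT2A*.

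*SLC30A3*, known as the transporter of synaptic vesicles, was the SLC30 gene whose groups did not overlap. Of all tested genes, 7.48% were higher without overlap. It had 78, 96 and 72 reads in control and 113, 122 and 104 reads in *IL17D* libraries, or 4.80, 6.64 and 4.48 CPM against 6.87, 7.42 and 7.29 CPM. Control replicate 2 came close to the *IL17D* libraries and the other two controls lay lower. The mean went from 5.30 ± 1.17 to 7.19 ± 0.288 CPM (SD, n = 3 each), a log2 fold change of 0.45 (SE 0.16, 95% interval 0.11 to 0.78), with an adjusted p of 0.226 in edgeR's quasi-likelihood test and a range of 0.080 to 0.470 over the alternatives.

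The other tested SLC30 genes had overlapping groups. *SLC30A5* and *SLC30A6*, partners in a heteromer of the early secretory pathway, had log2 fold changes of 0.02 (SE 0.053) and -0.10 (SE 0.064), at 64.2 and 73.6 CPM in control and 65.2 and 68.6 CPM with *IL17D*. *SLC30A7*, of the Golgi, changed by 0.04 (SE 0.080) from 30.03 to 30.94 CPM, *SLC30A9*, of mitochondria, by -0.01 (SE 0.050) from 78.3 to 77.9 CPM, and *SLC30A4*, of endosomal vesicles, by -0.01 (SE 0.14) from 8.89 to 8.85 CPM. Their adjusted p-values by edgeR's quasi-likelihood test were 0.585 or higher.

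The importer family gave no call either. Of the 14 SLC39 genes, 13 had reads and 12 were tested, of which 8 were lower and 4 higher, with a median log2 fold change of -0.027. Summed over the family, the level was 882 ± 12.5 CPM in control and 891 ± 7.19 CPM in *IL17D* libraries (SD, n = 3 each), a ratio of 1.01. None had an adjusted p under 0.05 by edgeR. An unadjusted p under 0.05 was found for 1, which was higher, where 5.59% of all tested genes were higher. Groups did not overlap for 2, both higher, where 7.48% of all tested genes were higher without overlap. *SLC39A12* had 4 and 1 reads in 2 control libraries and 1 read in an *IL17D* library, and *SLC39A2* had 0 reads.

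*SLC39A14*, a plasma membrane importer of zinc, iron and manganese known to respond to inflammatory cytokines, had the highest CPM of all members. It had 3968, 3421 and 3840 reads in control and 4211, 4262 and 3623 reads in *IL17D* libraries, or 244.2, 236.5 and 238.8 CPM against 256.0, 259.2 and 253.9 CPM. All *IL17D* values lay above all control values, by a small margin. The mean went from 239.8 ± 3.94 to 256.4 ± 2.68 CPM (SD, n = 3 each), which is 6.90% higher and a log2 fold change of 0.10 (SE 0.035, 95% interval 0.02 to 0.17). *SLC39A14* was not called, with an adjusted p of 0.227 in edgeR's quasi-likelihood test and between 0.203 and 0.491 over the alternatives.

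*SLC39A7*, which releases zinc from the endoplasmic reticulum and Golgi, had the highest level per deposited gene length of the SLC39 family in control cells. It had 1762, 1632 and 1588 reads in control and 1775, 1603 and 1518 reads in *IL17D* libraries, with overlapping groups. Its log2 fold change was -0.04 (SE 0.051, 95% interval -0.14 to 0.07, adjusted p = 0.862 by edgeR's quasi-likelihood test). *RXRB* on the opposite strand overlaps 8.58% of the exon bases of *SLC39A7*, and whether the counting used strand is not given in the sources used here.

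*SLC39A1*, a plasma membrane importer, had 29, 15 and 29 reads in control and 41, 31 and 28 in *IL17D* libraries. In CPM its groups did not overlap (1.79, 1.04 and 1.80 against 2.49, 1.89 and 1.96), but the log2 fold change of 0.45 had a 95% interval from -0.19 to 1.08 and an adjusted p of 0.652 by edgeR's quasi-likelihood test. The level of *SLC39A1* itself is uncertain: other genes overlap 69.1% of its exon bases, 60.8% being shared on the same strand with a gene listed with 0 reads, and 63.8% of its 31-base stretches also occur elsewhere.

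The other 9 tested SLC39 genes had overlapping groups and adjusted p-values of 0.710 or higher by edgeR's quasi-likelihood test. The importers of the plasma membrane *SLC39A6* and *SLC39A10*, close relatives that form a complex, had log2 fold changes of 0.00 (SE 0.049) and -0.01 (SE 0.042) at 101.6 and 136.7 CPM in control. *SLC39A8*, which also carries manganese, had 0.05 (SE 0.063) at 47.3 CPM. *SLC39A4*, the intestinal importer, and *SLC39A3* both had -0.06 (SE 0.078 and 0.089), at 29.6 and 24.1 CPM. *SLC39A9* and *SLC39A13*, both found in the Golgi, had -0.04 (SE 0.044) and -0.05 (SE 0.072) at 123.3 and 43.7 CPM, and *SLC39A11* had -0.02 (SE 0.080) at 27.1 CPM. *SLC39A5* had only 16, 7 and 12 reads in control and 7, 7 and 9 with *IL17D*, and its log2 fold change of -0.60 had an interval from -1.59 to 0.39. *ERH* on the opposite strand overlaps 5.23% of the exon bases of *SLC39A9*.

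**Figure D3:**
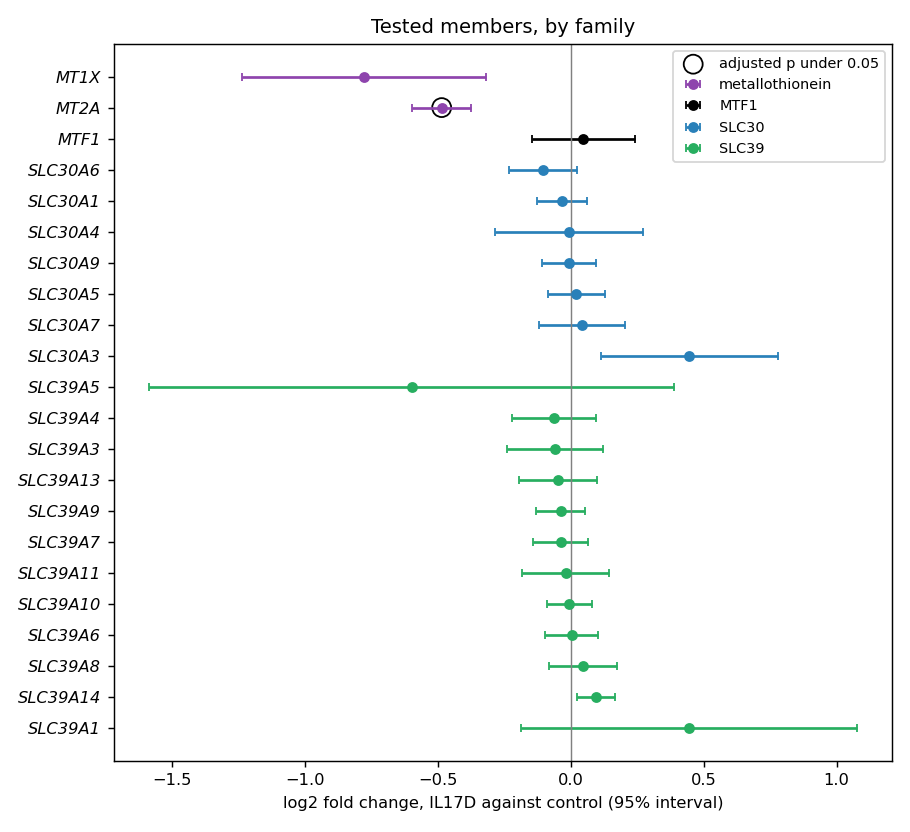
Log2 fold change of the 22 tested members, *IL17D* against control (x axis, bars are 95% intervals), ordered by family. *MT2A* and *MT1X* are the members whose whole interval is below 0, *SLC30A3* and *SLC39A14* those whose interval is above 0, and the ring marks *MT2A*, the member with an adjusted p under 0.05.

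For most transporters, the spread between these libraries was small enough to set a limit. Of the 19 tested transporters, 15 had a 95% interval within 1.2-fold of no difference in either direction, and 18 had an interval wholly above the log2 fold change of *MT2A*, the exception being *SLC39A5*. The 15 transporters at 20 CPM or more in control had log2 fold changes from -0.10 to 0.10, with interval bounds from -0.24 to 0.21. Differences smaller than these bounds remain possible. None of the 19 was called by edgeR, by DESeq2 or by limma with voom weights, and 2 had an unadjusted p under 0.05 by edgeR, both higher (*SLC30A3*, *SLC39A14*). DESeq2 gave no adjusted p for *SLC39A1* and *SLC39A5*, so it could not call them.

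Set against all genes, the members' counts were as follows. Adjusted p-values under 0.05 were found for 1 of 22 tested members, and that 1 was lower, where 0.908% of all tested genes were called lower. Unadjusted p-values under 0.05 were found for 2 members in each direction, where 5.99% of all genes were lower and 5.59% higher by that measure. Among tested members, groups did not overlap for 2 that were lower, both metallothioneins, and for 3 that were higher, all transporters. By that measure 8.31% of all tested genes were lower and 7.48% higher. *MT1F*, also lower without overlap, was below the filter and is not counted here. Both tested metallothioneins thus stood in the lower set by 2 of these measures, whereas the 19 transporters held 0 lower and 3 higher genes without overlap, with counts this small being a description only. Over all 22 tested members the median log2 fold change was -0.012.

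Levels between genes were compared per kilobase of gene length (RPKM, computed from the counts and the deposited gene lengths). Those lengths cover all annotated exons of a gene and can exceed its longest annotated transcript. For *SLC39A14* they were 6942 against 4641 bases and for *SLC39A11* 5583 against 2752 bases, but for *SLC30A1* both were 5474 bases. The orders below hold for the deposited lengths, and whether they hold for transcript lengths was not tested. In control cells *MT2A* led all members at 67.5 ± 3.38 RPKM, and it remained first at 48.3 ± 2.95 RPKM with *IL17D* (SD, n = 3 each). Among the exporters in control cells, *SLC30A1* (19.3 RPKM) stood above *SLC30A6* (13.6 RPKM), followed by *SLC30A5* (11.1 RPKM) and *SLC30A9* (10.8 RPKM), whose libraries overlapped, then *SLC30A7* (3.59 RPKM) and, overlapping each other, *SLC30A4* (1.10 RPKM) and *SLC30A3* (0.887 RPKM). Among the importers, *SLC39A7* (37.5 RPKM) and *SLC39A14* (34.6 RPKM) overlapped at the top, ahead of *SLC39A6* (27.6 RPKM), *SLC39A10* (19.8 RPKM) and *SLC39A9* (17.3 RPKM). *SLC39A13* (9.53 RPKM), *SLC39A8* (7.31 RPKM), *SLC39A4* (5.88 RPKM), *SLC39A3* (5.29 RPKM) and *SLC39A11* (4.86 RPKM) came next, the last pair overlapping, and *SLC39A1* (0.455 RPKM) and *SLC39A5* (0.254 RPKM) were lowest of those tested. With *IL17D*, the top pair of importers stood at 36.9 RPKM for *SLC39A14* and 36.5 RPKM for *SLC39A7*.

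**Figure D4:**
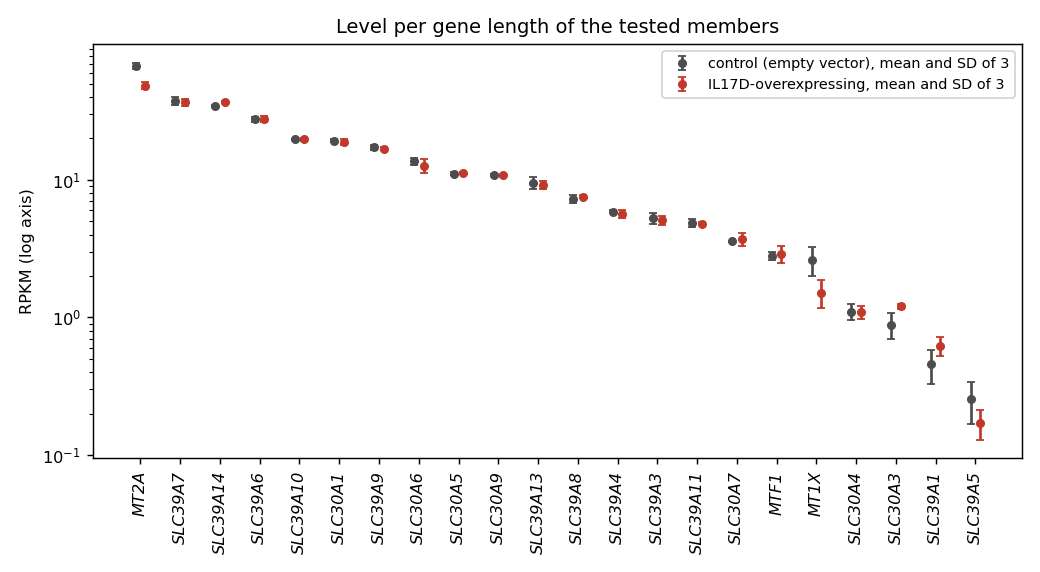
Level per length (RPKM, log axis) of the 22 tested members, with points for the mean and bars for the SD of 3 libraries per group, ordered by the control level. *MT2A* is at the top in both groups, at 67.5 and 48.3 RPKM, and the transporters span 0.254 (*SLC39A5*) to 37.5 RPKM (*SLC39A7*) in control cells.

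Other genes of metal handling were counted from lists. Of 9 other zinc handling genes (channels, the receptor *GPR39*, zinc-binding proteins), 6 were tested and none was called by edgeR, with a median log2 fold change of 0.028. At an unadjusted p under 0.05 by edgeR, 1 was lower (*SLC11A2*, a divalent metal importer) and 1 higher (*CRIP1*). Of all tested genes, 5.99% were lower and 5.59% higher by that measure. Of 16 copper handling genes, 13 were tested and none was called or had an unadjusted p under 0.05 by edgeR, with a median of 0.00092. Of 12 metal and oxidative stress genes, all tested, edgeR called none in either direction. Among them 8 were lower and 4 had an unadjusted p under 0.05, all lower, where 5.99% of all tested genes were lower by that measure: *GCLM* and *GCLC*, the subunits of the enzyme that starts glutathione synthesis, *SLC7A11*, the cystine importer, and *HMOX1*, heme oxygenase. The median of this list was -0.026, and the log2 fold changes of these 4 genes lay between -0.13 and -0.08. Metallothionein genes are also known to respond to glucocorticoids. Of 11 glucocorticoid response genes, 9 were tested, 6 higher and 3 lower. By edgeR 2 were called, both higher, where 0.673% of all tested genes were called higher: *SGK1*, a kinase, from 32.5 ± 2.15 to 42.7 ± 1.87 CPM (log2 fold change 0.40, adjusted p = 0.00074 by edgeR), and *DUSP1*, a phosphatase of MAP kinases, from 159.0 ± 5.53 to 176.5 ± 4.52 CPM (0.15, adjusted p = 0.046 by edgeR; SD, n = 3 each). *ANGPTL4*, a regulator of lipoprotein lipase, had an unadjusted p under 0.05 and was not called (log2 fold change 0.13). The 3 lower genes, none with an unadjusted p under 0.05 by edgeR, were *KLF9* at -0.29, *FKBP5* at -0.09 and *TSC22D3* at -0.10. Groups did not overlap for 2 of these (*KLF9*, *FKBP5*), where 8.31% of all tested genes were lower without overlap. They also did not overlap for 3 higher genes (*SGK1*, *DUSP1*, *ANGPTL4*), where 7.48% of all tested genes were higher without overlap. The median of that list was 0.063.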

How the data were processed

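Gene-level raw read counts were deposited by the authors for 6 libraries, with gene coordinates and lengths. Bowtie2 and the build hg38 appear in the submitters' processing notes. The counting program, annotation and strand setting are not given in the sources used here. Counts were fitted for all genes together with edgeR 4.0.16 (TMM scaling, default filterByExpr filter, quasi-likelihood test) in R 4.3.3, and p-values were adjusted by Benjamini-Hochberg over 15754 genes at a threshold of 0.05. Printed CPM values are counts per 1000000 reads of the TMM-scaled library size over the tested genes. The libraries held 14319398 to 16521021 counted reads. The *MT1F* interval and the zero-count limits cover counting error only, whereas the edgeR intervals include the spread between libraries. The labels do not say that replicates came from separate cultures, so p-values and edgeR intervals measure only the spread between these libraries. Alternatives used DESeq2 1.42.0, limma 3.58.1, other scalings and filters, a replicate block, and omission of each library. Members, lists and tests were chosen with earlier results of these data known. Values per library are given for metallothioneins, *MTF1*, transporters with an unadjusted p under 0.05 or without overlap, and the top transporter per length of each family. List genes with an unadjusted p under 0.05 were named. The script was checked on simulated counts. Promoter windows came from RefSeq, gene overlaps and shared stretches from GENCODE 29. The genes around the metallothionein cluster are not reported here.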

Additional observations from a re-analysis of the deposited data

How the results depend on the processing

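The fall of *MT2A* kept its call under all 13 alternatives, and no member was called higher under any of them. The count of members called lower was 1, and 2 with all genes of at least 1 count tested, with a replicate block, without control replicate 3 and without *IL17D* replicate 2, the added gene being *MT1X*. Replicate numbers were shared by the groups. Over all tested genes, the deviations of same-numbered libraries correlated at 0.0100, -0.0119 and -0.0151, within the range of differently numbered ones (-0.041 to 0.054). Whether same-numbered libraries were handled together was not tested. With the replicate block, 115 genes were called higher and 157 lower, against 106 and 143 without it, and *MT1X* stood at -0.79 on the log2 scale (adjusted p = 0.042 by edgeR). Leaving out 1 library at a time, genes called higher ranged from 70 to 133 and genes called lower from 77 to 137, the fewest without *IL17D* replicate 3, with 95 lower without control replicate 2 and 82 lower without *IL17D* replicate 1. The members called lower ranged from 1 to 2. The median of all members was -0.034 with all genes of at least 1 count tested. With 1 library left out, the SLC30 median ranged from -0.026 to 0.017 and the SLC39 median from -0.028 to 0.0049. Directions turned for 11 members, none of them called under any alternative: with 1 library left out the log2 fold change ranged from -0.032 to 0.16 for *MTF1*, -0.11 to 0.073 for *SLC30A4*, -0.042 to 0.13 for *SLC30A7*, -0.026 to 0.011 for *SLC30A9*, -0.022 to 0.018 for *SLC39A10*, -0.061 to 0.032 for *SLC39A11*, -0.13 to 0.015 for *SLC39A13*, -0.13 to 0.0022 for *SLC39A3*, -0.031 to 0.048 for *SLC39A6*, -0.089 to 0.0076 for *SLC39A7* and -0.00055 to 0.095 for *SLC39A8*. The fits with 1 library left out had fewer libraries, and the cause of the turned directions was not tested. No scaling moved the median of all genes by more than 0.0030 on the log2 scale. Depth limits *MT1F*, *SLC30A2*, *SLC39A12* and the genes without reads.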
